A study of Mus musculus with 8 samples.

Results

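Parvalbumin, the calbindins and 7 further genes of EF-hand proteins were followed in nuclear RNA of cortical GABAergic neurons of control mice and of mice that carry a mutation of Thra, the gene of a thyroid hormone receptor. The genes were chosen by name, as the rows of the count tables whose GENCODE M21 symbol is Pvalb, Calb1, Calb2, Necab1, Necab2, Hpca, Hpcal1, Ncald, Vsnl1 or Caln1. All 10 were found among the 55450 genes of the tables, and all 10 were among the 16448 genes with enough reads to be tested. Controls were Thra+/+ and mutants Thra+/AMI, in which the mutated receptor acts in a dominant negative manner. Cre/loxP recombination with a driver restricted to GABAergic neurons switched on the mutation and a reporter protein that makes nuclei fluorescent. Both groups were juvenile, nuclei of both were sorted by this fluorescence, and each library came from the cortex of 1 mouse. The promoter behind the Cre driver and the exact age were not given in the sources used here.

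An EF-hand is a helix-loop-helix fold whose loop holds a calcium ion. Some EF-hand proteins act mainly as buffers that take up calcium after an action potential, such as parvalbumin, calbindin and calretinin, while others are sensors that change shape and bind partner proteins when calcium rises, such as the hippocalcin and visinin-like family. In the cortex parvalbumin marks fast-spiking basket and chandelier cells, calbindin is found in many somatostatin cells and in some pyramidal neurons, and calretinin is found in many VIP cells and some somatostatin cells. Parvalbumin appears late, during postnatal maturation of these neurons.

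The series holds 8 samples, and the table of mutant 10 repeated that of mutant 7 in all 21975 compared genes with a count (0 differed), so they were counted as 1 library. Which of these 2 mice the counts came from is not known, and they are called mutant 7 here. For control 4 and mutants 6, 7 and 8 the library number in the labels differs from the one on the deposited table, and each table was taken for the sample it is filed under in GEO. The comparison is thus between 4 controls (1 to 4) and 3 mutants (6, 7 and 8), with 10747169 to 13804734 reads in genes per library. Levels are given as CPM, the reads of a gene scaled to a common library total (TMM-scaled CPM). Thra reads, which were not separated by allele, were at 105 to 125 CPM in controls and 77.5 to 96.1 CPM in mutants, and the difference missed the threshold (log2 fold change of mutant over control -0.39, SE 0.11, adjusted p 0.0543 by edgeR's quasi-likelihood test). The GABAergic markers Gad1 (519 to 663 CPM over the 7 libraries) and Gad2 (366 to 496 CPM) were high, and Slc17a7, a marker of glutamatergic neurons, was at 46.8 to 94.3 CPM. Dlx1, another GABAergic marker, was listed at 0 in every library, and so were Cox6a2, Nucb1, Gfap and P2ry12. How reads were counted is not known, so a listed 0 is not taken as absence of expression. Of all tested genes 4.63% were called higher and 4.78% lower in mutants.

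Pvalb fell 22.6-fold and Calb1 rose 3.07-fold. Caln1 fell and Necab2 rose by smaller amounts. At an adjusted p under 0.05 over all tested genes, 4 of the 10 were called, where the share over all tested genes was 9.42%: Pvalb and Caln1 lower, and Calb1 and Necab2 higher. Calb2, Necab1, Hpca, Hpcal1, Ncald and Vsnl1 were not called. The median log2 fold change of the 10 genes was 0.09, that of the 9 genes without Pvalb was 0.17, and that of all tested genes was -0.01. Every mutant lay on one side of every control for 5 of the 10 genes, the 4 called ones and Hpca, and this held for 22.0% of all tested genes.

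**Figure D1:**
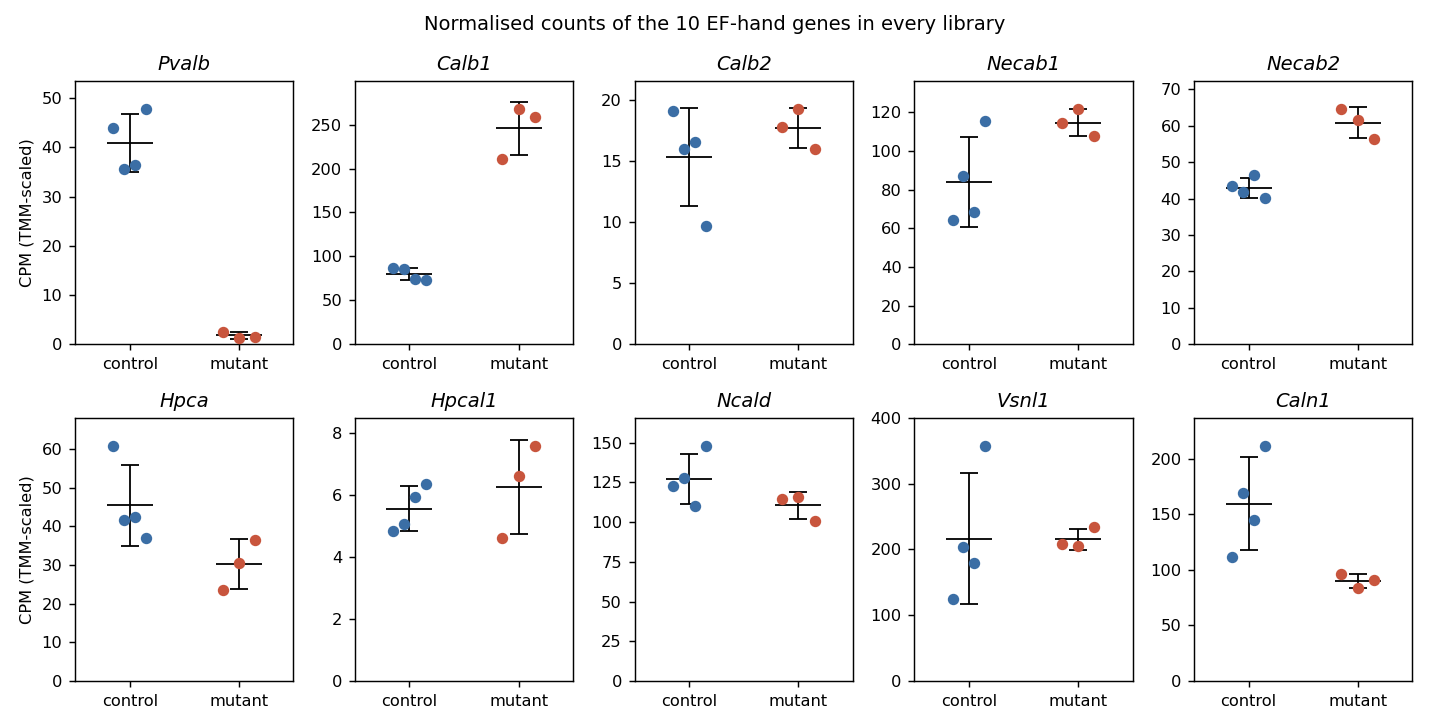
CPM (TMM-scaled, linear axes from 0) of the 10 EF-hand genes in each library, with 4 controls in blue and 3 mutants in red; black lines are the mean and SD of each group. Pvalb lies at 35.7 to 47.7 CPM in controls and 1.28 to 2.58 CPM in mutants, while Vsnl1 spans 125 to 357 CPM among the controls alone.

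Among the buffers, Pvalb (ENSMUSG00000005716.16, GRCm38 chromosome 15, 78191114 to 78206400, minus strand), a small cytosolic protein, was at 43.9, 35.7, 36.3 and 47.7 CPM in controls 1 to 4. It was at 2.58, 1.28 and 1.56 CPM in mutants 6, 7 and 8. Every mutant was far below every control. The mean fell from 40.9 ± 5.90 CPM (SD, n = 4) to 1.81 ± 0.681 CPM (SD, n = 3). On the log2 scale this was -4.48 (SE 0.23), and the adjusted p of edgeR's quasi-likelihood test was 7.63e-07. The mutant values rest on 33, 14 and 20 reads, against 473 to 593 in the controls. In these bulk libraries, fewer nuclei of a type and less RNA per nucleus cannot be told apart, so markers of the cell classes are given beside the buffers. By size of the change Pvalb was gene 6 of the 16448 tested, and gene 5 among those that were lower.

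The stretch upstream of the start of Pvalb is shown because thyroid hormone receptors bind DNA half-sites of the form AGGTCA. RefSeq windows in GRCm38.p6, with bases annotated as exon trimmed off, were found for 6 of the 10 genes. Pvalb has a window at the outer edge of the gene (chr15:78206401-78206650, minus strand) and one inside it (chr15:78204238-78204487, minus strand). Sequences run 5′ to 3′ toward the gene, and capitals mark a match to AGGTCA or GGGTCA on either strand.

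Pvalb, outer start: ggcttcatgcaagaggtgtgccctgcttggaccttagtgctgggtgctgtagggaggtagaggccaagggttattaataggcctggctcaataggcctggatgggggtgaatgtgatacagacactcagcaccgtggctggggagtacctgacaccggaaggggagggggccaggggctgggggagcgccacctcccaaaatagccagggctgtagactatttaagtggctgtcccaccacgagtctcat

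Pvalb, inner start: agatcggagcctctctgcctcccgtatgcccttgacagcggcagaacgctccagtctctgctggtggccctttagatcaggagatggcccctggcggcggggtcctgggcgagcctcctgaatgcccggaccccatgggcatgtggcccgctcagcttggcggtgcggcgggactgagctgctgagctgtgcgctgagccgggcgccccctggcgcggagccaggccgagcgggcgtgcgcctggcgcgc

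Neither window of Pvalb held AGGTCA or GGGTCA, which says only that these letters are not there. Among 32851 RefSeq windows of 250 bases, 14.02% held AGGTCA and 11.65% held GGGTCA on either strand. Of the 5 other genes with a window, Necab2, Caln1 and Hpca, which was not called, each held 1 match, and Hpcal1 and Vsnl1 held none.

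Calb1 (ENSMUSG00000028222.2, chromosome 4, 15881264 to 15908064, plus strand) encodes calbindin, another of the buffers. It was at 87.3, 85.1, 74.0 and 73.7 CPM in the controls and at 211, 268 and 259 CPM in the mutants. The lowest mutant was above the highest control by more than the whole spread of the controls. The mean rose from 80.01 ± 7.17 to 246 ± 30.5 CPM, by 1.62 on the log2 scale (SE 0.12, adjusted p 1.05e-05 by edgeR).

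Calb2 (ENSMUSG00000003657.9, chromosome 8, 110137502 to 110168210, minus strand) encodes calretinin. Its CPM was 19.1, 15.99, 16.6 and 9.66 in the controls and 17.8, 19.2 and 16.004 in the mutants. The mutants lay within the range of the controls except mutant 7, which was barely above it. Calb2 was not called (0.20, SE 0.21, adjusted p 0.633 by edgeR), and without control 4, the lowest library, its log2 fold change was 0.0374. Of the 3 buffers, 1 was thus lower, 1 was higher and 1 had no detected difference in the same libraries.

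Of 8 parvalbumin class markers other than Pvalb, 7 were tested and 3 were called, all lower: Syt2 (-2.18), a synaptic vesicle calcium sensor, Akr1c18 (-1.82) and Kcnc1 (-1.40), a fast potassium channel subunit. Tac1 (-0.00), Pthlh (-0.28), Kcns3 (0.23) and Erbb4 (0.26) were not called, and Cox6a2 was listed at 0 in every library. Their summed level was 3194 to 5038 CPM in controls and 3838 to 4827 CPM in mutants, so the groups overlapped. Erbb4 alone made up 2455 to 4336 CPM of it. The sum and its overlap thus mainly follow Erbb4, which was not called, and do not show the level of the other genes of the list. The part of this list in the fall of Pvalb was not tested. Syt2 was at 51.9 to 85.6 CPM in controls and 12.01 to 15.3 CPM in mutants.

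Of 8 somatostatin class markers other than Calb1 and Calb2, Sst (0.84) and Crhbp (1.03) were called higher and Hpse (-1.09) lower. Chodl (0.11), Grin3a (0.44), Elfn1 (0.43), Nos1 (0.04) and Pdyn (-0.52) were not called. The list's summed level was 888 to 1065 CPM in controls and 1274 to 1552 CPM in mutants, without overlap, and its part in the rise of Calb1 was not tested. Without Sst the sum was 557 to 847 CPM in controls and 845 to 987 CPM in mutants, so the groups just overlapped. The call of Sst was lost when mutant 7 was left out (0.75, adjusted p 0.0551). Of 8 VIP class markers, the class that calretinin labels most, 3 were called higher and 2 lower, and Vip itself was not called (-0.27, adjusted p 0.469).

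**Figure D2:**
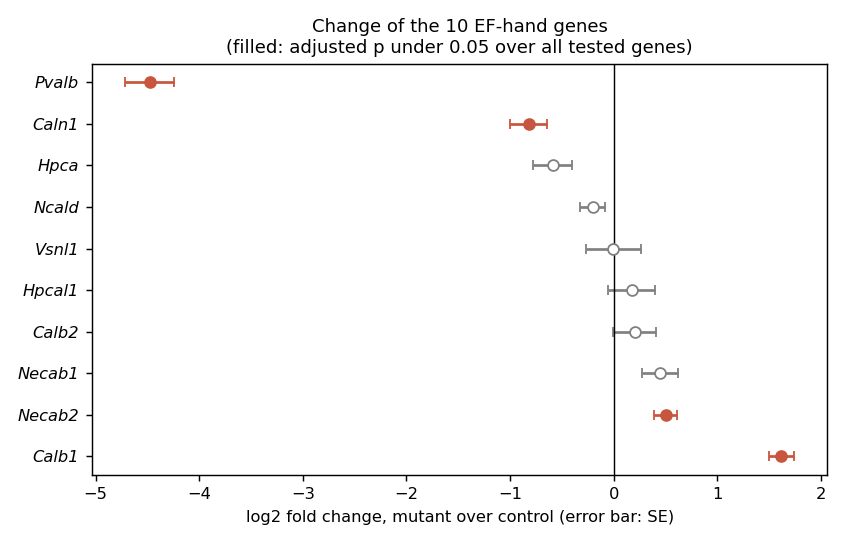
Log2 fold change of mutant over control with its SE for the 10 EF-hand genes, from the edgeR fit over all tested genes; filled points passed an adjusted p of 0.05. Pvalb (-4.48) stands far to the left of the other 9 genes, which lie between -0.82 (Caln1) and 1.62 (Calb1).

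The NECAB genes encode neuronal proteins with an EF-hand domain near the N terminus and a monooxygenase-like domain near the C terminus. Necab2 (ENSMUSG00000031837.14, chromosome 8, 119446719 to 119472640, plus strand) was at 43.5, 41.8, 46.4 and 40.0 CPM in the controls and 64.5, 61.7 and 56.3 CPM in the mutants. All 3 mutants were above all 4 controls. Necab2 rose 1.42-fold (log2 value 0.50, SE 0.11, adjusted p 0.0115 by edgeR). Its call was lost without mutant 6 (0.46, adjusted p 0.0718) or mutant 7 (0.50, adjusted p 0.0625).

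The window upstream of Necab2 (chr8:119446469-119446718, plus strand) held GGGTCA once, 18 bases from its end, and is shown with the match in capitals. This motif was in 11.65% of all windows, and a match is no evidence of a bound site.

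Necab2: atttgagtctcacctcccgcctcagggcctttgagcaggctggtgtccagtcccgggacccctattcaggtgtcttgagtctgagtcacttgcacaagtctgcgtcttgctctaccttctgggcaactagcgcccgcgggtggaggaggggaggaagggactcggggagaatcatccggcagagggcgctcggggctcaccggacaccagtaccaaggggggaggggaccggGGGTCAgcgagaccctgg

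Necab1 (ENSMUSG00000040536.15, chromosome 4, 14952245 to 15149794, minus strand) was at 64.5, 87.1, 68.4 and 115 CPM in the controls and 114, 122 and 108 CPM in the mutants. Control 4 lay among the mutants, and the other 3 controls lay below them. Necab1 was not called (0.45, SE 0.17, adjusted p 0.143 by edgeR). Without control 4 it was 0.64 and called (adjusted p 0.00159). An overlapping gene, Gm11837, shares 6.51% of the 75-base stretches of the Necab1 transcripts, so some of its reads could be assigned to either gene.

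The neuronal calcium sensors of the visinin-like family carry a lipid anchor that calcium exposes, which moves them to membranes. Hpca (ENSMUSG00000028785.13, chromosome 4, 129111570 to 129122036, minus strand) encodes hippocalcin. Its CPM was 60.8, 41.6, 42.5 and 36.9 in the controls and 23.6, 30.5 and 36.5 in the mutants. The groups did not overlap, but mutant 8 and control 4 were nearly equal. By edgeR it was not called (-0.59, SE 0.19, adjusted p 0.0764). Hpca was called lower without control 4 (-0.68, adjusted p 0.0127), under DESeq2 (-0.59, adjusted p 0.0429) and in 4 further alternatives.

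Vsnl1 (ENSMUSG00000054459.8, chromosome 12, 11325242 to 11436613, minus strand) encodes visinin-like protein. It was at 125, 203, 179 and 357 CPM in the controls and 208, 205 and 234 CPM in the mutants. The 3 mutants were close together and lay inside a wide range of controls. The means were 216 ± 99.7 and 215 ± 15.9 CPM, and edgeR gave -0.0038 on the log2 scale (SE 0.27, adjusted p 0.995). Single controls set this value: it was 0.35 without control 4 and -0.19 without control 1, and neither was called.

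Ncald (ENSMUSG00000051359.15, chromosome 15, 37366175 to 37792570, minus strand), which encodes neurocalcin delta, was at 123, 128, 109.9 and 148 CPM in the controls and 115, 116 and 101 CPM in the mutants. The groups overlapped, and Ncald was not called (-0.20, SE 0.12, adjusted p 0.370 by edgeR). Other annotated genes cover 74.4% of the span of Ncald and 7.38% of its exons. Hpcal1 (ENSMUSG00000071379.2, chromosome 12, 17690856 to 17791933, plus strand), a close relative of hippocalcin, was the gene with the fewest reads in controls, 61 to 79 per library. It was at 4.83, 5.05, 5.93 and 6.36 CPM in the controls and 4.61, 6.60 and 7.57 CPM in the mutants and was not called (0.17, SE 0.23, adjusted p 0.728 by edgeR). A difference of the size seen for Hpca or Necab2 could go undetected in Hpcal1 at this depth. The same holds for Vsnl1 (SE 0.27) and Calb2 (SE 0.21), which had more reads.

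Caln1 (ENSMUSG00000060371.12, chromosome 5, 130369455 to 130847412, plus strand) encodes calneuron, a sensor related to calmodulin that sits in Golgi membranes. It was at 112, 169, 145 and 211 CPM in the controls and 96.3, 83.7 and 90.5 CPM in the mutants. Every mutant was below every control, with control 1 closest to them. Caln1 fell 1.77-fold (log2 value -0.82, SE 0.18, adjusted p 0.0131 by edgeR). Its call was lost without mutant 6 (-0.87, adjusted p 0.0546), mutant 7 (-0.76, adjusted p 0.0875) or mutant 8 (-0.82, adjusted p 0.0692).

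Upstream of Caln1, the window chr5:130369208-130369454 (plus strand, 247 bases after trimming) held AGGTCA once, with its first base 55 bases from the end of the window. It is shown with the match in capitals, beside the 14.02% of all windows that held this motif.

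Caln1: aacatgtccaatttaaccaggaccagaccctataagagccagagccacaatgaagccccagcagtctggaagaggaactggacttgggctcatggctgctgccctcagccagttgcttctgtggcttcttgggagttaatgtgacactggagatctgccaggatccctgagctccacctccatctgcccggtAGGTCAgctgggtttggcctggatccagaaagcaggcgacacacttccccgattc

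Several of these sensors are also expressed by glutamatergic neurons. The summed level of 10 glutamatergic markers was 401 to 479 CPM in controls and 282 to 354 CPM in mutants. Without Slc30a3, a vesicular zinc transporter, it was 245 to 346 and 224 to 280 CPM, so the groups overlapped. Cux2 alone made up 133 to 201 CPM of this sum in controls and 138 to 158 CPM in mutants. Of the 10 markers 1 was called, Slc30a3 (-1.10), and the other 9 had log2 fold changes from -0.49 to 0.13. The part of these markers in the results for the EF-hand genes was not tested. Of 5 markers of Cajal-Retzius cells, which can hold calretinin, Lhx5 was listed at 0 in every library, and Trp73, Lhx1 and Ebf3 had 0 to 8 reads per library and were not tested. The fifth, Cxcl14, fell (-1.88, from 52.1 ± 17.1 to 14.2 ± 2.13 CPM). With the other 4 at or near 0, its fall cannot be assigned to these cells, and the list gives no reading of them.

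Pvalb was set against the other 9 genes by ratios of reads within a library, which do not depend on how libraries are scaled. All 9 ratios share Pvalb, so the fall of Pvalb described above largely fixes their direction, and they are no independent evidence of it. The log2 ratio of Pvalb to Calb1 was -0.99, -1.25, -1.03 and -0.63 in the 4 controls in order. In mutants 6, 7 and 8 it was -6.33, -7.65 and -7.34. Pvalb thus had fewer reads than Calb1 in every library, and the gap was wider in every mutant than in any control. The mean ratio was lower in mutants by 6.14 on the log2 scale. Relative to Calb2, Pvalb had more reads in all 4 controls (1.13 to 2.30) and fewer in all 3 mutants (-3.86 to -2.77), a difference of -4.77. The same change of sign was seen relative to Hpcal1, from 2.61 to 3.18 in controls and from -2.32 to -0.83 in mutants.

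For the other 6 genes the differences of the mean log2 ratio were -5.02 (Necab2), -5.01 (Necab1), -4.62 (Vsnl1), -4.32 (Ncald), -3.93 (Hpca) and -3.74 (Caln1). The smallest difference was thus relative to Caln1, the other gene that was called lower. In all 9 ratios the groups did not overlap, and the exact permutation test (two-sided, over the 35 ways of assigning 7 libraries to 4 and 3) gave p = 0.0286 each, unadjusted, the smallest p this design allows. With a change of Pvalb this large, that p does not tell the 9 genes apart.

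**Figure D3:**
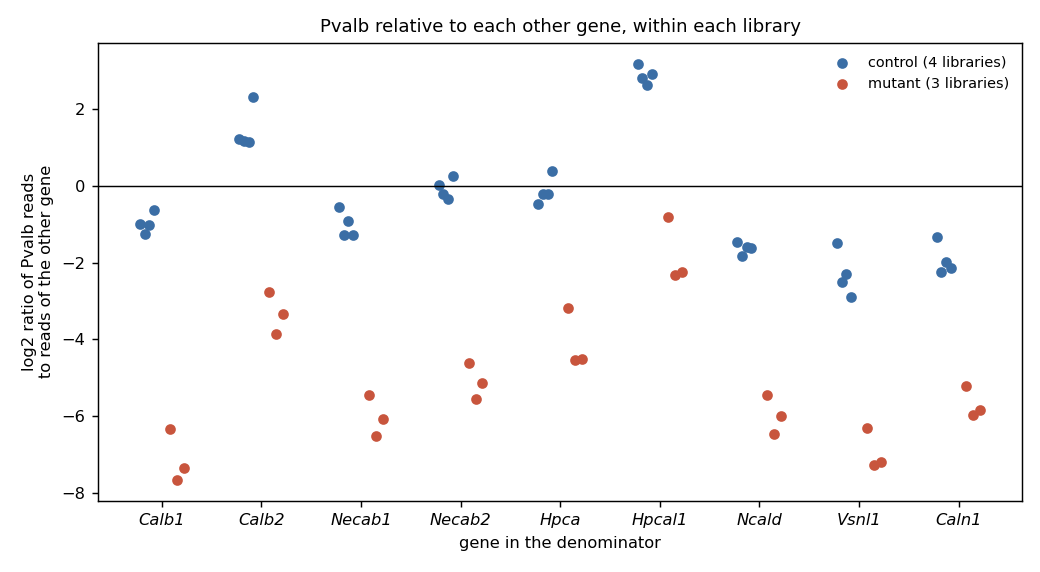
Log2 ratio of Pvalb reads to the reads of each of the other 9 genes, 1 point per library (4 controls in blue, 3 mutants in red); 0 on the vertical axis means equal reads. In all 9 columns the mutants lie below the controls, and relative to Calb2 and Hpcal1 the ratio crosses from above 0 to below it.

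Levels of different genes can be compared only per length, here as CPM per kb of annotated exon (whether reads in introns were counted is not given in the sources used here, so this order holds only for counting over exons). In controls Vsnl1 was highest at 110.4 ± 51.0 CPM per kb, followed by Pvalb at 39.3 ± 5.66 and Necab2 at 20.5 ± 1.30. Calb1, at 16.5 ± 1.48 CPM per kb, differed from Necab1, Hpca, Caln1 and Ncald by less than the SD of each of these. Necab1, Hpca, Caln1 and Ncald were at 14.8 to 16.01 CPM per kb and did not differ from each other beyond their SDs of 1.85 to 4.44. Calb2 followed at 8.79 ± 2.30 and Hpcal1 at 3.27 ± 0.426 CPM per kb. In mutants Vsnl1 was still highest at 110.1 ± 8.14 CPM per kb, Calb1 came next at 50.8 ± 6.29, and Pvalb was the lowest of the 10 at 1.74 ± 0.655 CPM per kb.

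Genes with the most similar profile over the 7 libraries were found by Pearson correlation of log2 CPM, among 11791 candidates that averaged 5 CPM or more. For Pvalb these were Coro6 (r = 0.998), an actin-binding coronin, Adamtsl5 (r = 0.998) and Jam2 (r = 0.995), a junctional adhesion molecule. Their log2 fold changes were -1.09, -4.18 and -1.49, so a like profile did not mean a like size. For Calb1 they were Nbn (r = 0.996), Gap43 (r = 0.996), a growth cone protein, and Zfp57 (r = 0.992), which were higher in mutants by 0.52, 1.19 and 1.504. The profile of Calb2 was most like those of Adprhl2 (r = 0.992), Rps15 (r = 0.991) and Chd3 (r = 0.986), none of which was called. These correlations describe 7 libraries that share the group difference, and 202 genes reached a correlation over 0.95 with Pvalb.

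The controls differed among themselves in a way that touched the longer genes of the set. The log2 ratio of control 4 to control 1 was 1.52 for Vsnl1 (111 kb), 0.92 for Caln1 (478 kb), 0.84 for Necab1 (198 kb), 0.40 for Hpcal1 (101 kb) and 0.27 for Ncald (426 kb). It was 0.12 for Pvalb (15.3 kb), -0.12 for Necab2 (25.9 kb), -0.24 for Calb1 (26.8 kb), -0.72 for Hpca (10.5 kb) and -0.98 for Calb2 (30.7 kb). All 5 genes over 100 kb were higher in control 4, and 4 of the 5 shorter genes were higher in control 1. Over the 10 genes Spearman's rho with genomic length was 0.71, a description of 2 libraries that all genes share.

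With an offset from genomic length in the fit, or without both of these controls, Necab1 (0.45 and 0.56) and Hpca (-0.56 and -0.48) were called too. The adjusted p-values were 0.00351 and 0.000317 for Necab1, and 0.0122 and 0.0184 for Hpca. This made 3 genes higher and 3 lower of 10 in each of these 2 fits, in which Pvalb was at -4.47 and -4.29. Calls over all genes rose too, to 2753 of 16448 tested and 2778 of 16684 tested, from 1549 of 16448 in the reported fit.

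**Figure D4:**
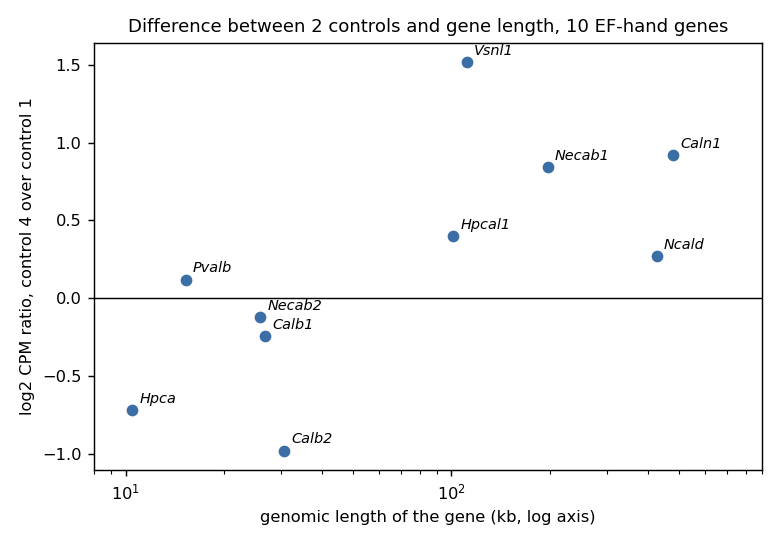
Log2 CPM ratio of control 4 to control 1 against genomic length (kb, log axis) for the 10 EF-hand genes; each point is 1 gene. The 5 genes over 100 kb lie above 0 and 4 of the 5 shorter genes below it, with Vsnl1 highest at 1.52.

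Further calcium genes were read from 7 lists. Of 53 further EF-hand genes in 5 lists, 42 were tested, 2 were called higher and 3 lower (11.9%, against 9.42% of all tested genes), with a median log2 fold change of -0.10. The 3 calmodulin genes were not called, at -0.17 to -0.11 (0 at an unadjusted p under 0.05, and 0 by DESeq2 or limma-voom). Among 7 tested neuronal calcium sensors outside the set, Kcnip4 (-1.31) and Kcnip2 (-0.63) fell. Both encode EF-hand subunits of A-type potassium channels. Kcnip4 was at 1603 to 3803 CPM in controls and 889 to 1184 CPM in mutants, and Kcnip2 at 227 to 238 and 142 to 163 CPM.

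None of the 5 tested genes of the CaBP, NECAB and secretagogin list was called by edgeR (-0.61 to 1.03), while 3 had an unadjusted p under 0.05, DESeq2 called 1 and limma-voom called 2. Ocm, the closest relative of Pvalb, had too few reads to be tested. S100a10, an annexin partner of the S100 family, rose (1.29, from 2.77 ± 0.578 to 6.82 ± 0.897 CPM), and the other 5 tested S100 genes were not called. Of 21 tested genes of other EF-hand families, Nucb2, which encodes a nucleobindin, rose (0.86) and Letm1, a protein of the inner mitochondrial membrane, fell (-0.56). Kcnip4 lost its call without mutant 7 (-1.26, adjusted p 0.0832) or mutant 8 (-1.21, adjusted p 0.0811), and so did Letm1 without mutant 7 (-0.51, adjusted p 0.0525), while the others kept their call without any 1 library.

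Of 20 tested pumps, exchangers and release channels, which move calcium across membranes, 6 were lower and 1 was higher (35%, beside 9.42% of all tested genes), with a median log2 fold change of -0.29. The release channels Ryr1, a ryanodine receptor, and Itpr1, an inositol trisphosphate receptor, both fell. Ryr1 was at 43.1, 43.7, 45.8 and 44.2 CPM in the controls and 13.1, 17.8 and 11.9 CPM in the mutants (-1.64, SE 0.15, edgeR adjusted p 5.43e-05). Itpr1 was at 297 to 383 CPM in controls and 136 to 169 CPM in mutants (-1.17, SE 0.14). Atp2b4, a calcium pump of the plasma membrane, rose from 23.1 ± 2.08 to 49.0 ± 4.11 CPM (1.08, SE 0.12), whereas the related pump Atp2b2 fell (-0.63).

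Slc8b1 (-1.54), a mitochondrial exchanger with 18 or more reads in each control and at most 10 in each mutant, Slc24a2 (-0.99), a potassium-dependent sodium-calcium exchanger, and Atp2a2 (-0.49), the pump of the endoplasmic reticulum, fell as well. The count of lower genes was 2 without control 2 or any 1 of the 3 mutants, 4 without control 3 and 8 without control 1 or control 4. It was also 2 with the mean level of the glutamatergic markers as a covariate. That fit called 1165 of all 16448 tested genes, against 1549 in the reported fit. Its covariate includes Slc30a3, itself called lower, so it can take up part of the group difference. Ryr1, Itpr1 and Atp2b4 kept their calls in all 7 fits without 1 library. Slc8b1, Slc24a2, Atp2b2 and Atp2a2 did not, with adjusted p-values of up to 0.155. Of 14 tested calmodulin-dependent kinase and calcineurin genes 1 was called, Camk1g, a kinase, which was higher (0.56). Ppp3r1, not called, is counted both here and among the genes of other EF-hand families. Camk1g lost its call without mutant 6 (0.52, adjusted p 0.0509) or mutant 7 (0.51, adjusted p 0.0565).

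**Figure D5:**
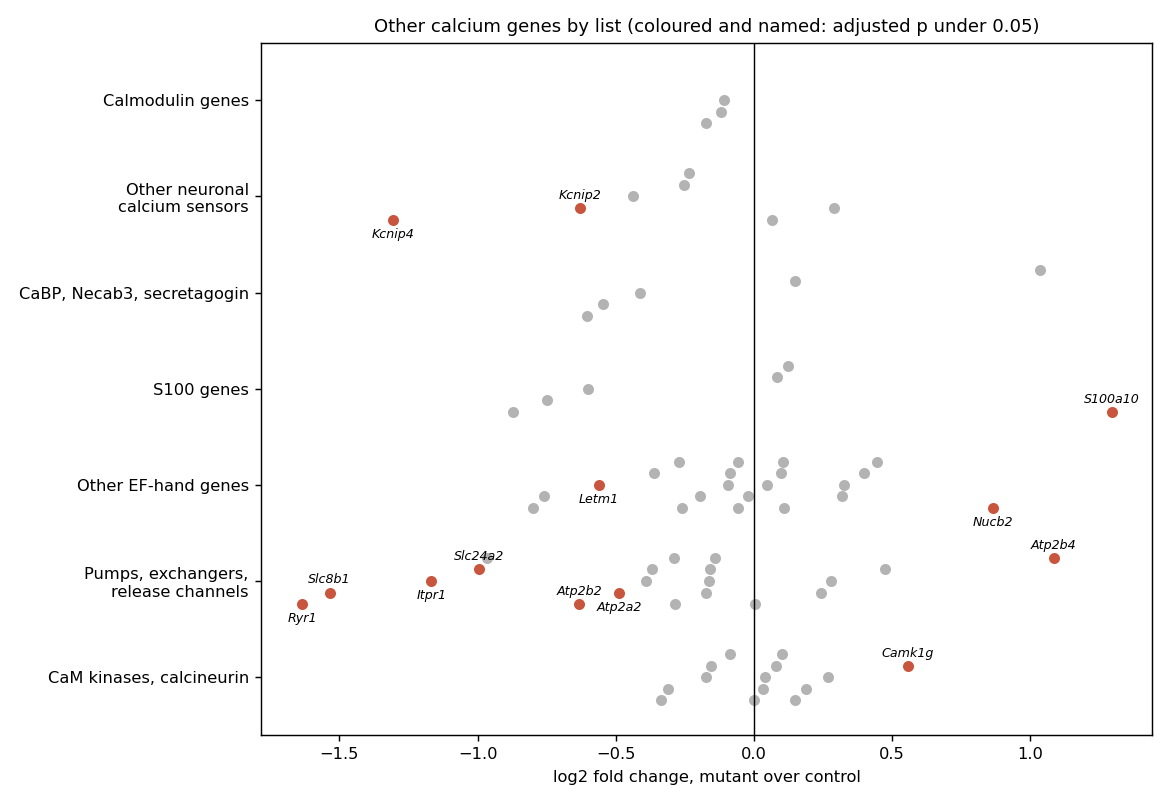
Log2 fold change of mutant over control for the tested genes of 7 calcium gene lists, 1 point per gene in each list. The 13 called genes are coloured and named (vertical offsets within a list only separate the points). Ppp3r1 appears both among other EF-hand genes and among kinases and calcineurin. Most of the coloured points lie in the list of pumps, exchangers and release channels, from Ryr1 (-1.64) to Atp2b4 (1.08).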

How the data were processed

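Nuclear RNA of sorted nuclei was sequenced after SMART-Seq cDNA synthesis and Nextera XT library preparation, per the labels' protocols. The deposited values are raw counts of reads per gene, not normalized by the authors as far as the labels record. The submitters' processing notes name Bowtie2 2.5.3 and the build GRCm38 (mm10). The counting program was not given in the sources used here. All 55450 gene identifiers matched GENCODE M21 (GRCm38), which gave symbols, coordinates and lengths. PCR without molecular identifiers means that read numbers understate the error between molecules.

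The counts of 7 libraries were fitted with edgeR 4.0.16 under R 4.3.3 (filterByExpr with a least count of 10, TMM scaling, robust quasi-likelihood fit with group as the only term). P-values were two-sided and Benjamini-Hochberg adjusted over all 16448 tested genes, and an adjusted p under 0.05 was a call. The SE was the log2 fold change divided by the square root of F. Ratios used a pseudocount of 0.5. Alternatives were RLE and upper-quartile scaling, DESeq2 1.42.0, limma-voom 3.58.1 with quality weights, other filters, a genomic length offset, a glutamatergic covariate and the removal of libraries. Tested on simulated data for this comparison (15581 genes), the fit recovered 71 of 100 genes changed by a log2 of 1 and 96 of 100 changed by 2, with 11 false calls. The simulated counts held no differences between libraries that many genes share, such as those between controls 1 and 4. These numbers may thus not carry over to the real libraries.

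The 10 genes and all lists were chosen with earlier results of these data known. Named genes are the 10 genes, Thra, every called gene of the 7 calcium gene lists and the 13 marker lists, and the 3 most correlated genes for Pvalb, Calb1 and Calb2. Single genes such as Dlx1, Cox6a2, Lhx5 and Ocm, and uncalled genes named in the text, were added after their values were seen. Where 2 identifiers share the symbol Dlx6os1, the lower identifier was used.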

Additional observations from a re-analysis of the deposited data

Results flagged for a closer look

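In the 4 controls, 1 library lay far from the other 3 for 2 of 43 genes examined (the 10 EF-hand genes and the called calcium and marker genes), where chance gives about 1 in 20. Control 4 had 85.6 CPM of Syt2, a parvalbumin class marker, while the other controls had 51.9 to 56.8 CPM. It had 33.1 CPM of Hpse, a somatostatin class marker, while the other controls had 21.4 to 21.7 CPM. None of the 10 EF-hand genes stood apart by this measure, and both Syt2 and Hpse kept their calls without control 4. The 3 mutants were too few to examine in this way.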

How the results depend on the processing

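Pvalb and Calb1 were called in all 16 alternatives, at log2 fold changes from -4.83 to -4.29 and from 1.56 to 1.72. Necab2 was called in 14 (0.44 to 0.56) and Caln1 in 13 (-0.95 to -0.65). Of the genes not called, Hpca was called in 6 and Necab1 in 4, and Calb2, Hpcal1, Ncald and Vsnl1 in none. The log2 fold change of Vsnl1 turned positive with upper-quartile scaling (0.0182), with a mean of at least 5 CPM (0.0174), with limma-voom (0.18), with the length offset (0.0365), with the glutamatergic covariate (0.0105) and without controls 1 and 4 (0.17), and ran from -0.19 to 0.35 without single libraries. The cause was not tested.

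The number of all tested genes called higher and lower was 1572 and 1562 with limma-voom, 1345 and 1408 with the length offset, and 1363 and 1415 without controls 1 and 4. Without single libraries it ran from 360 to 1213 higher and from 374 to 1134 lower. Of the 10 EF-hand genes, 1 to 3 were then called higher and 1 to 3 lower. Of the 75 tested other calcium genes, 4 higher and 9 lower in the reported fit, these numbers were 9 and 19 with limma-voom, 7 and 19 with the length offset, and 9 and 15 without controls 1 and 4. The lower genes numbered 15 with DESeq2 and 5 with the glutamatergic covariate, where 2 of them were pumps, exchangers or release channels. Over all tested genes the lower ones numbered 977 with DESeq2 and 577 with the covariate, against 787 in the reported fit. Without single libraries 3 to 8 of the other calcium genes were higher and 4 to 16 lower, 2 to 8 of the latter in the list of pumps. All 9 ratios of Pvalb kept their sign with a pseudocount of 5 and without single libraries, with largest shifts of 0.27 to 0.49 on the log2 scale, beyond the SD of the controls for 5 of them and of the mutants for 0. No paired analysis was possible because the groups share no replicate numbers. At the lowest total, 1 CPM corresponds to about 10.7 reads, which limits genes with few reads, such as Pvalb in mutants (14 to 33), Hpcal1 and Slc8b1.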

Other observations

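Markers of the other interneuron classes also moved in both directions. In the VIP list Tac2 (1.05), a tachykinin, Cck (0.71), the cholecystokinin gene, and Npas1 (0.65), a transcription factor, rose, while Chat (-1.64), the acetylcholine synthesis enzyme, and Crh (-0.74), a neuropeptide, fell. In the LAMP5 list Cplx3 (-1.39), a complexin, and Npy (-0.64) fell and Sv2c (0.43), a synaptic vesicle protein, rose. Tac2 and Npas1 kept their calls without any 1 library. The others did not. Cplx3 was not called without mutant 8, and Npy without mutant 6 or 8. Cck, Chat, Crh and Sv2c were not called without several single libraries, controls included. Lamp5 itself was not called (-0.53, adjusted p 0.107 by edgeR). Of the 8 genes of the LAMP5 list 4 were above 0 and 4 below. An unadjusted p under 0.05 was reached by 7 of them, beside 3709 of all 16448 tested genes.

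Among markers of other cells and regions, Sox9 (1.37), Mog (0.93), Rgs9 (0.81) and Dcx (0.43) were called higher, each as the only called gene of its list. Rgs9 was not called without mutant 7, and the call of Dcx was lost without control 2, without control 3 and without each mutant. By edgeR 0 of 5 tested microglial markers were called (2 at an unadjusted p under 0.05, 1 each by DESeq2 and limma-voom), and 0 of 6 tested endothelial and mural markers (0 by each of these measures). Of 7 tested genes of the pan-GABAergic list, with a median of 0.11 on the log2 scale, 0 were called by edgeR or DESeq2, 1 by limma-voom and 1 at an unadjusted p under 0.05. The gene with this unadjusted p was Lhx6 (0.23), which is also in the LAMP5 list, so the list is not purely pan-GABAergic. Lhx6 was at 127 to 146 CPM in controls and 154 to 174 CPM in mutants. It was the only 1 of the 7 whose groups did not overlap, beside 22.0% of all tested genes.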
